A study of Mus musculus with 9 samples.

Results

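The genes described here are receptors, with their partner protein and an enzyme, that set how fast a fat cell releases fatty acids. The group was defined as 9 genes: Adrb1, Adrb3, Adra2a, Adora1, Ptger3, Mc2r, Mrap, Ffar2 and Pde3b. Members were taken by gene symbol from the array's probe annotation, and each gene is represented by its brightest single-symbol probe set, judged by the mean of the 9 arrays. In this way 5 of the 9 were followed, of 18193 genes in all: Mc2r, Mrap, Ffar2, Ptger3 and Pde3b. Adrb1, Adrb3, Adra2a and Adora1 were not analysed here, so nothing below describes the beta-adrenergic receptors.

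Total RNA of 3T3-L1, a line of mouse fibroblasts able to turn into fat cells in culture, was read on 9 single-colour oligonucleotide arrays. The 3 groups of 3 arrays were preadipocytes, adipocytes electroporated on day 14 after induction with non-targeting control siRNA, and adipocytes electroporated on the same day with PPAR gamma siRNA. Both adipocyte groups had been induced for 2 days with insulin (10 µg/ml), IBMX (0.5 mM), which inhibits phosphodiesterases, and dexamethasone (1 µM), and had then had insulin alone for 2 days. The siRNA amount is given as 2 or 3 nmol for either siRNA, without the amount for each array. Preadipocytes had neither siRNA nor electroporation, so these cannot be told apart from differentiation in a comparison with them. The series calls the replicates technical. The p-values therefore measure only the spread between these arrays, and the number of arrays limits the precision.

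In a fat cell, hormones bound to receptors coupled to the stimulatory G protein Gs raise cyclic AMP. Cyclic AMP activates protein kinase A, which phosphorylates the droplet coat and hormone-sensitive lipase and so starts lipolysis. Receptors coupled to the inhibitory G protein Gi oppose this. Insulin opposes it too, by activating PDE3B, a phosphodiesterase that breaks down cyclic AMP.

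Values are on the log2 scale, where a difference of 1 is a doubling, and are given as mean ± SD (n = 3). Differences between groups are given ± SE from 1 limma fit of the 9 arrays. The threshold for a call was 0.05 after Benjamini-Hochberg adjustment over 45037 probe sets. Levels are compared only within a probe set.

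The siRNA target and the summed markers of the cell state moved with the labels. Pparg stood at 8.22 ± 0.12 in preadipocytes, 12.79 ± 0.12 with control siRNA and 9.59 ± 0.05 with PPAR gamma siRNA. The summed level of the 4 adipocyte markers measured (Adipoq, Fabp4, Cidec, Pparg) lay between 20.4 and 21.0 in preadipocytes, 54.5 and 54.7 with control siRNA, and 42.6 and 43.3 with PPAR gamma siRNA. That of 5 preadipocyte markers (Dlk1, Thy1, Zfp521, Gata2, Pdgfra) lay between 55.5 and 56.0, 37.2 and 38.5, and 44.7 and 47.5 in the same order. Between the siRNAs 4 of these 5 rose, beside 19.9% of all genes, and Gata2 was not called (0.06 ± 0.19). In RNA of whole cultures, fewer fat cells and less of an RNA per fat cell cannot be told apart. The summed level of 6 macrophage markers lay between 26.4 and 26.7 in preadipocytes and 28.4 and 28.8 with control siRNA. With PPAR gamma siRNA it lay between 30.9 and 32.4. Of the 6, 2 were called between the siRNAs, Cd14 and Cd68, both higher. They are 33.3% of the list, beside 19.9% of all genes higher and 35.9% called in either direction between the siRNAs. Csf1r was not called there, at 6.15 ± 0.06 with control siRNA and 6.06 ± 0.07 with PPAR gamma siRNA. Adgre1, Itgam and Ptprc lay between 3.12 and 3.89 on all 9 arrays, and Adgre1 was called higher in differentiation (0.43 ± 0.10). Control probe sets differed between preadipocytes and adipocytes as well. The mean of the poly-A spike-ins was 10.40 in preadipocytes, 8.37 with control siRNA and 8.19 with PPAR gamma siRNA, and that of the hybridisation spike-ins BioB and BioC was 7.51, 9.15 and 8.96. The Actb 3' minus 5' difference, a sign of RNA integrity, lay between 0.23 and 0.36 in preadipocytes, 0.91 and 1.30 with control siRNA, and 0.54 and 1.25 with PPAR gamma siRNA. The part of these shifts in the differences below was not tested. In fits with the Actb difference as a covariate or without its 2 highest arrays, every call on the 5 genes was the same. These fits cannot separate RNA integrity from differentiation, because the Actb ranges of preadipocytes and of either adipocyte group do not overlap.

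Of the 5 genes, 4 exceeded their preadipocyte level in control siRNA adipocytes, against 27.1% of all genes tested, and none was lower, against 24.7%. Their median log2 difference was 4.15, beside 0.09 for all genes. With PPAR gamma siRNA, 3 of the 5 were lower than with control siRNA, against 16.1% of all genes, and 1 was higher, against 19.9%. That one was Mc2r. Against preadipocytes, 4 of the 5 remained higher in PPAR gamma siRNA adipocytes, where 19.6% of all genes were higher. Ptger3 was called in none of the 3 comparisons. The arrays of the 4 called genes did not overlap between any pair of groups, as was so for 61.5% of all genes between control siRNA adipocytes and preadipocytes, 44.4% between the siRNAs and 49.8% between PPAR gamma siRNA adipocytes and preadipocytes. The first and second comparisons share the control siRNA arrays, so a high value there raises one difference and lowers the other.

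**Figure D1:**
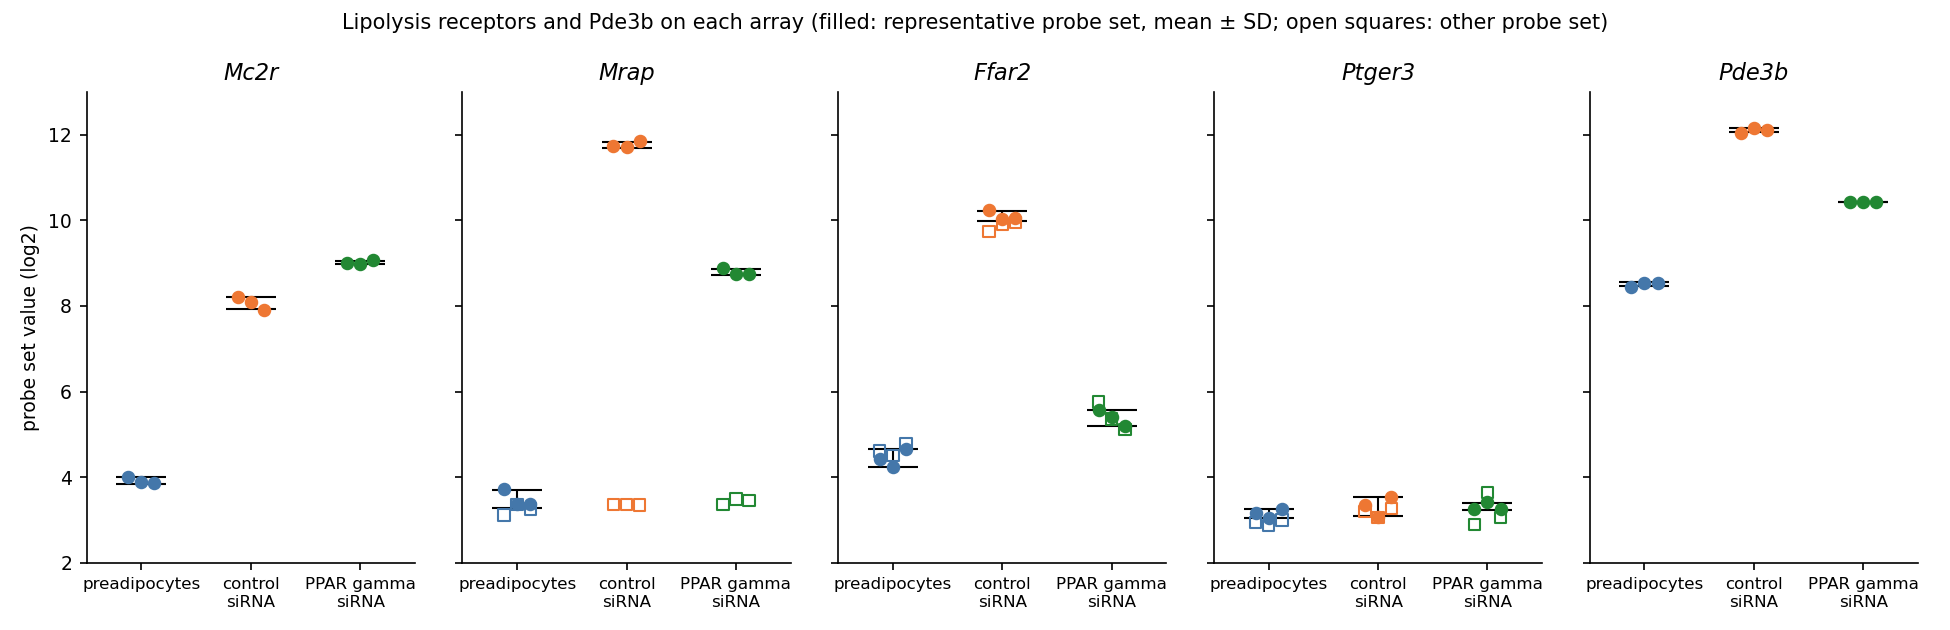
Probe set value (log2) on each of the 9 arrays for the 5 genes, with filled points for the representative probe set, bars for mean ± SD over 3 arrays and open squares for the other probe set where there is one. Mc2r is highest with PPAR gamma siRNA, at 9.02, whereas Mrap, Ffar2 and Pde3b are highest with control siRNA, and Ptger3 stays between 3.04 and 3.53 throughout.

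Mc2r, the receptor for the pituitary hormone corticotropin (ACTH), couples to Gs and stimulates lipolysis in rodent fat cells. It read 4.01, 3.88 and 3.87 on the preadipocyte arrays, 8.20, 8.09 and 7.92 with control siRNA, and between 8.99 and 9.07 with PPAR gamma siRNA. The 3 groups formed separate bands, and the knockdown arrays were the highest of the 9. Differentiation raised Mc2r by 4.15 ± 0.09, or 17.8-fold (limma adjusted p = 2.13e-11), a fold that its low starting level may understate. PPAR gamma siRNA raised it by a further 0.95 ± 0.09, or 1.93-fold (limma adjusted p = 1.00e-05). Compared with preadipocytes, cells depleted of PPAR gamma had 5.10 ± 0.09 more Mc2r on the log2 scale (limma adjusted p = 1.93e-11). Mc2r was measured by 1 probe set, so no other probe set could be set beside it.

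Mrap encodes a small membrane protein that MC2R needs to reach the cell surface and to bind its hormone. Its representative probe set read 3.73, 3.36 and 3.37 in preadipocytes, 11.74, 11.72 and 11.85 with control siRNA, and 8.88, 8.75 and 8.76 with PPAR gamma siRNA. In preadipocytes it was close to the probe sets for the bacterial Trpn control, which lay between 2.78 and 3.36 there, and in control siRNA adipocytes it was on average at the 98.2th percentile of the array. Differentiation raised Mrap by 8.28 ± 0.11, or 311-fold (limma adjusted p = 5.21e-13), a fold that its low starting level may understate. PPAR gamma siRNA lowered it 7.84-fold, a log2 difference of -2.97 ± 0.11 (limma adjusted p = 4.53e-09). It nevertheless stayed 5.31 ± 0.11 above preadipocytes (limma adjusted p = 4.50e-11). The other Mrap probe set lay between 3.11 and 3.49 on all 9 arrays and passed in none of the 3 comparisons. Averaging both probe sets gave 4.19 for differentiation and -1.45 for knockdown, with the calls the same.

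The receptor and the representative probe set of its partner both rose in differentiation, and in knockdown one rose and the other fell. The difference between Mrap and Mc2r on the same array, in which a shift common to an array cancels, was -0.43 ± 0.13 in preadipocytes, 3.70 ± 0.21 with control siRNA and -0.22 ± 0.10 with PPAR gamma siRNA. It was greater by 4.13 in control siRNA adipocytes than in preadipocytes, and with PPAR gamma siRNA it fell by 3.92 from the control siRNA value. With both Mrap probe sets averaged, the same changes were 0.041 and -2.39. The values describe 2 probe sets that may differ in response, and in preadipocytes Mrap was hardly above the Trpn control probe sets, so neither the differences nor their changes are exact ratios of the 2 RNAs. With the representative probe set each change had p = 0.10 in an exact two-sided permutation test of 3 arrays against 3, the smallest that design allows, and adjusted over the 2 tests it was again 0.10.

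**Figure D2:**
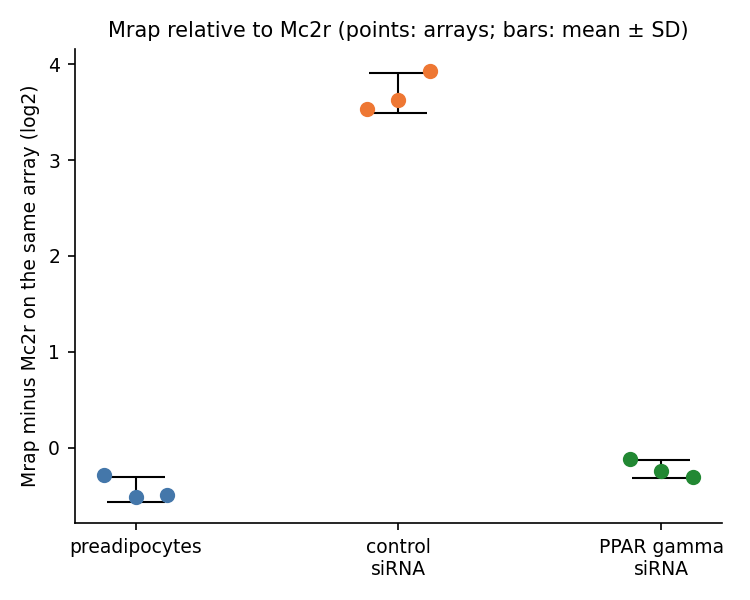
Mrap minus Mc2r on the same array (log2), with points for arrays and bars for mean ± SD over 3 arrays. The 3 control siRNA arrays lie between 3.53 and 3.93, while preadipocyte and PPAR gamma siRNA arrays all lie between -0.51 and -0.12 for the representative Mrap probe set; with both Mrap probe sets averaged, the changes between groups were 0.041 and -2.39.

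Ffar2 (also known as Gpr43) is a receptor for acetate, propionate and other short-chain fatty acids that couples to Gi and lowers lipolysis in fat cells. RefSeq lists several transcription starts for it on the minus strand of mouse chromosome 7, and the windows around 4 of them were at hand (250 bases before to 50 after each start, GRCm38.p6). The windows were searched on both strands for the direct repeat bound by PPAR gamma with RXR (AGGTCA, any 1 base, AGGTCA, with at most 2 of its 12 fixed bases different), for the C/EBP motif TTGCNNAA and for the cyclic AMP response element TGACGTCA. TTGCNNAA matched once in each of the 4 windows, and the other motifs in none. Of the other genes followed, only Ptger3 had a window at hand, and it held none of these motifs. Over 32851 windows of this length, 10.8% held TTGCNNAA, 3.86% the direct repeat and 1.79% the response element. The matches in the 2 windows that lie closest to the gene are the same bases, because those windows overlap. The 250 bases before the other 2 starts of Ffar2 are shown 5′ to 3′, with the TTGCNNAA match in capitals, beginning 74 and 148 bases before the start. On the first of them the match is on the opposite strand. A match is a description of letters and not evidence of binding.
Ffar2, farthest start, chr7:30823776-30824025, minus strand: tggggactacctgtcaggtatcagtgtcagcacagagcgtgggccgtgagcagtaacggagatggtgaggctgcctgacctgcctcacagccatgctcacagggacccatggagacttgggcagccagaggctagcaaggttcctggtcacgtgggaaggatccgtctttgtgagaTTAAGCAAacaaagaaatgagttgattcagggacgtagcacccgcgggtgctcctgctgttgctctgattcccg
Ffar2, next start, chr7:30821649-30821898, minus strand: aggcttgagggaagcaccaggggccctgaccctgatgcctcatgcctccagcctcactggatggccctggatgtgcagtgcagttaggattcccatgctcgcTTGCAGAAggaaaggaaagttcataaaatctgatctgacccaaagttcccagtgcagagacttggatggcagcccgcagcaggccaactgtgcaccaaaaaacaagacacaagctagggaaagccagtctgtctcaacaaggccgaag

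The representative Ffar2 probe set read 4.42, 4.25 and 4.66 in preadipocytes, 10.24, 10.02 and 10.05 with control siRNA, and 5.56, 5.40 and 5.19 with PPAR gamma siRNA. The knockdown arrays were thus just above the highest preadipocyte array and far below every control siRNA array. Differentiation raised Ffar2 by 5.66 ± 0.13, or 50.7-fold (limma adjusted p = 2.15e-11). PPAR gamma siRNA lowered it 26.5-fold, a log2 difference of -4.73 ± 0.13 (limma adjusted p = 7.70e-10), the greatest fall among the 5 genes. What was left above preadipocytes was 0.94 ± 0.13 (limma adjusted p = 0.000143). A second Ffar2 probe set gave 5.23 ± 0.15, -4.45 ± 0.15 and 0.78 ± 0.15 in the same order, with all 3 called.

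Ptger3, the EP3 receptor for prostaglandin E2, is another Gi-coupled brake on lipolysis. It read 3.16, 3.04 and 3.26 in preadipocytes, 3.35, 3.08 and 3.53 with control siRNA, and 3.26, 3.42 and 3.26 with PPAR gamma siRNA. The groups overlapped in every comparison, and all values lay in the range of the Trpn control probe sets, 2.78 to 3.65 over the 9 arrays. The differences were 0.17 ± 0.12 for differentiation (limma adjusted p = 0.281), -0.0036 ± 0.12 for knockdown (limma adjusted p = 0.989) and 0.16 ± 0.12 between PPAR gamma siRNA adipocytes and preadipocytes (limma adjusted p = 0.347). The other Ptger3 probe set was as low, between 2.87 and 3.64, and was called in no comparison. At this signal no change of Ptger3 was detected, which does not show that there was none.

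Pde3b encodes the phosphodiesterase through which insulin lowers cyclic AMP in fat cells. It read 8.45, 8.54 and 8.55 in preadipocytes, 12.05, 12.16 and 12.12 with control siRNA, and 10.43 on each PPAR gamma siRNA array. Preadipocytes were lowest, control siRNA adipocytes highest and the knockdown arrays between them, with no overlap. The 3 knockdown values are identical in the deposited table, as they are for 369 of the 45101 probe sets in this group, so their SD of 0 understates the array error, and the SE comes from the other arrays and the shared variance. Differentiation raised Pde3b by 3.60 ± 0.08, or 12.1-fold (limma adjusted p = 1.63e-11). PPAR gamma siRNA lowered it 3.21-fold, a log2 difference of -1.68 ± 0.08 (limma adjusted p = 2.67e-08). It stayed 1.92 ± 0.08 above preadipocytes (limma adjusted p = 8.48e-09). Pde3b was well above the Trpn control probe sets before differentiation too, on average at the 83.3th percentile of the preadipocyte arrays. The probe sets of Mc2r, Mrap and Ffar2 read lower there, on average at the 33.2th, 21.2th and 43.8th percentiles. Probe sets may differ in response, so these percentiles do not rank the amounts of the RNAs.

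**Figure D3:**
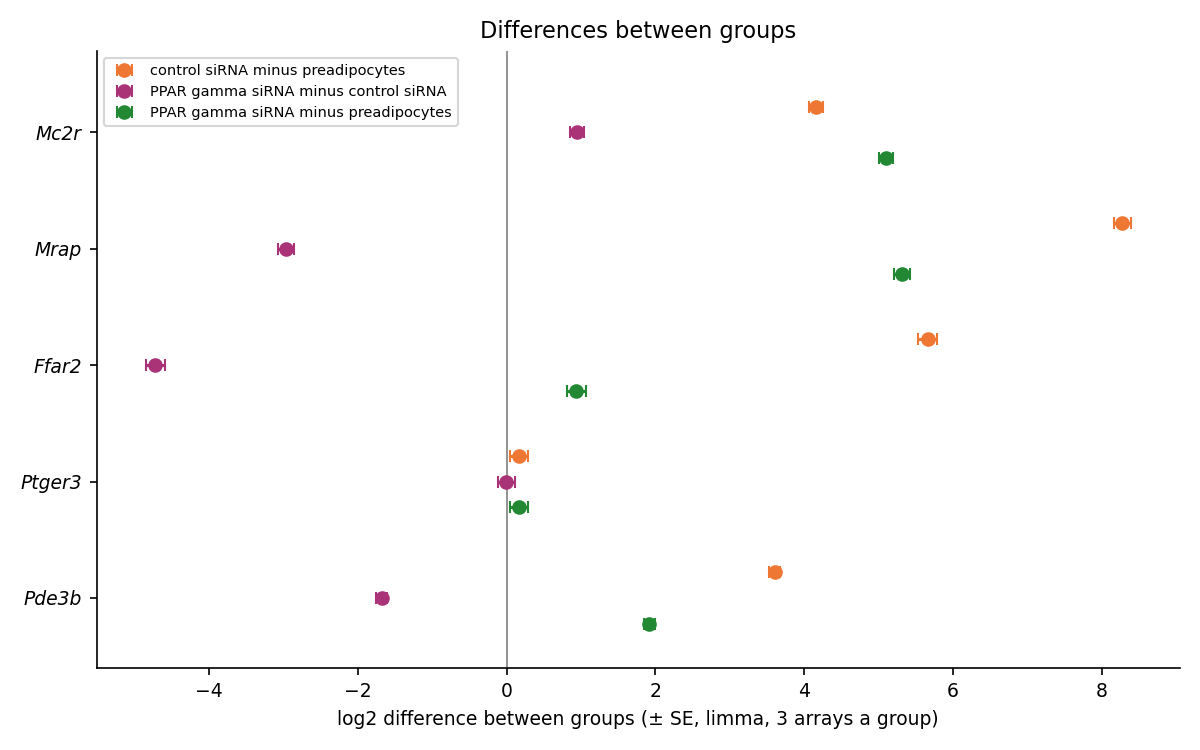
Log2 difference between groups (± SE, limma, 3 arrays a group) for the 5 genes in the 3 comparisons, 1 colour each. Mc2r lies right of 0 in all 3, Mrap, Ffar2 and Pde3b lie left of 0 for PPAR gamma siRNA minus control siRNA, and Ptger3 lies at 0.17, -0.0036 and 0.16.

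Genes of closest profile were found over all 18193 genes as those with the smallest root mean square difference from a member over the 9 arrays, after each profile was centred on its own mean. For Mc2r they were Sncg (0.24), Cyp2f2 (0.31) and Syn2 (0.34), against a median of 2.19 over all genes. Sncg encodes gamma-synuclein and Syn2 the synaptic vesicle protein synapsin II. Their differences between the siRNAs were 0.49, 0.47 and 0.43 in the order of the names, smaller than the 0.95 of Mc2r. For Mrap the closest were 2610528A11Rik (0.37), the carbonic anhydrase Car3 (0.39) and the glycerol-3-phosphate dehydrogenase Gpd1 (0.43), with a median of 3.39 over all genes. Those of Ffar2 were the growth factor Nrg4 (0.28), Rassf6 (0.31) and Lrrc39 (0.32), with a median of 2.46. For Pde3b they were the nuclear receptor corepressor Nrip1 (0.15), Acad11 (0.15) and the carnitine palmitoyltransferase Cpt2 (0.16), the last 2 of fatty acid oxidation, with a median of 1.44. The measure describes 3 group levels and the scatter of 9 arrays, and it carries no test.

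**Figure D4:**
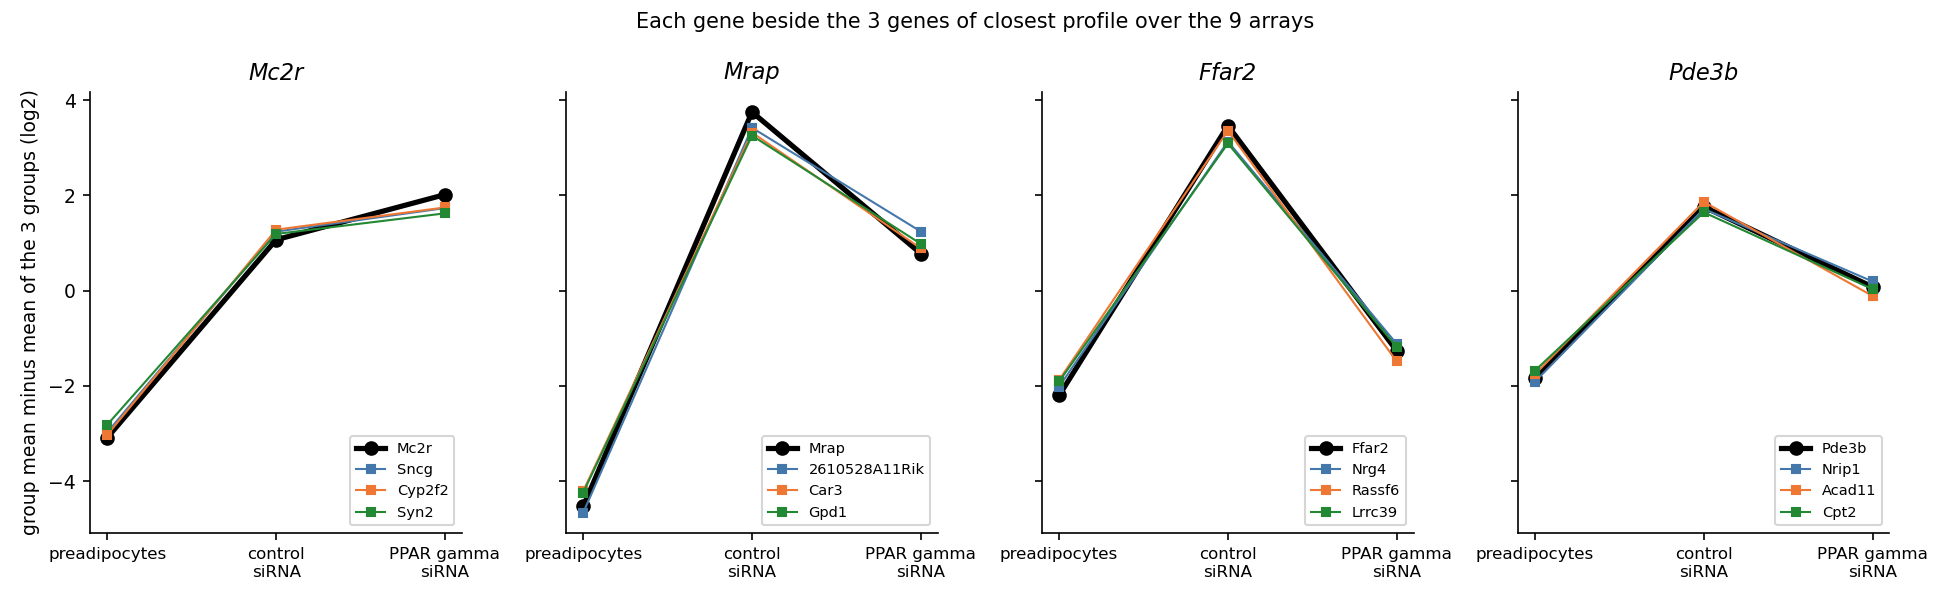
Group means minus the mean of the 3 groups (log2) for Mc2r, Mrap, Ffar2 and Pde3b (black) and for the 3 genes of closest profile to each (coloured). The Mc2r panel shows 4 lines that are highest with PPAR gamma siRNA, and the other panels show lines that peak with control siRNA.

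Other genes of the pathway were read from 9 lists, which held 127 genes, 113 of them measured. In differentiation 45 were higher and 30 lower, so that 66.4% were called, beside 51.8% of all genes. With PPAR gamma siRNA 20 were higher and 33 lower than with control siRNA, 46.9%, beside 35.9% of all genes. In PPAR gamma siRNA adipocytes 32 were higher and 21 lower than in preadipocytes, also 46.9%, beside 36.5%. The median log2 differences over the 113 were 0.20, -0.07 and 0.06, and those of all genes 0.09, -0.0088 and 0.07.

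Other receptors that oppose lipolysis included 4 that moved in the same directions as Ffar2. Of 9 measured receptors in the list of inhibitory, Gq-coupled and clearance receptors, 6 were higher and 2 lower in differentiation (median 0.69), and 4 were lower and none higher with PPAR gamma siRNA (median -0.21). Called in all were 88.9% of the list in differentiation and 44.4% between the siRNAs, beside 51.8% and 35.9% of all genes. By direction, 27.1% of all genes were higher and 24.7% lower in differentiation, and 16.1% were lower with PPAR gamma siRNA. The 4 that fell bind metabolites: Sucnr1 succinate, Hcar2 nicotinic acid and ketone bodies, Hcar1 lactate, and Ffar4 long-chain fatty acids. Hcar2 read 4.06, 4.58 and 4.15 in preadipocytes, 10.12, 10.00 and 10.07 with control siRNA, and 7.22, 6.90 and 6.99 with PPAR gamma siRNA. It rose by 5.80 ± 0.13 in differentiation and changed by -3.03 ± 0.13 with PPAR gamma siRNA (limma adjusted p = 1.92e-08 for the latter). Sucnr1 read 3.32, 3.34 and 3.20, then 8.66, 8.50 and 8.81, then 4.74, 4.65 and 4.60, with differences of 5.37 ± 0.10 and -3.99 ± 0.10. For Hcar1 the differences were 4.95 ± 0.16 and -2.79 ± 0.16, and for Ffar4 5.20 ± 0.26 and -2.23 ± 0.26. The knockdown arrays of all 4 lay above their preadipocyte arrays and below their control siRNA arrays. Npy1r, the Y1 receptor for neuropeptide Y, fell in differentiation (-3.55 ± 0.20), as did the natriuretic peptide clearance receptor Npr3 (-2.06 ± 0.14). Neither was called between the siRNAs, at 0.20 ± 0.20 and -0.21 ± 0.14.

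Of 15 other receptors and cofactors that raise cyclic AMP or stimulate lipolysis, 5 were higher and 1 lower in differentiation (median 0.21), and between the siRNAs 2 rose and 2 fell (median -0.12). That is 40% called in differentiation, below the 51.8% of all genes, and 26.7% between the siRNAs, below their 35.9%. The greatest rises were those of the PACAP receptor Adcyap1r1 (1.00 ± 0.12) and the thyrotropin receptor Tshr (0.97 ± 0.11), which differed by -0.77 ± 0.12 and -0.75 ± 0.11 between the siRNAs. Ptger4, the Gs-coupled EP4 receptor for prostaglandin E2, went the other way, from 8.38 ± 0.08 in preadipocytes to 5.49 ± 0.05 with control siRNA and 6.15 ± 0.03 with PPAR gamma siRNA. The parathyroid hormone receptor Pth1r was higher by 0.64 ± 0.13 with PPAR gamma siRNA. Mc5r, a melanocortin receptor also found in fat cells, went from 4.38 ± 0.16 to 4.81 ± 0.16 in differentiation (limma adjusted p = 0.0079) and stood at 4.69 ± 0.10 after knockdown. Mrap2, the relative of Mrap, was called in no comparison, with 0.14 ± 0.13 in differentiation and -0.09 ± 0.13 between the siRNAs. The count of lower receptors in differentiation was 2 without preadipocytes replicate 1 and with renewed quantile normalisation. With dim probe sets left out, the count of higher receptors was 3 in differentiation and 1 between the siRNAs.

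Of 17 subunits of heterotrimeric G proteins, 11 were lower in differentiation, where 24.7% of all genes were, and 3 were higher, where 27.1% were (median -0.69). Between the siRNAs 8 rose and 3 fell (median 0.38), beside 19.9% and 16.1% of all genes. Of the list, 82.4% were called in differentiation and 64.7% between the siRNAs. The inhibitory subunit Gnai2 went from 12.09 ± 0.08 to 9.95 ± 0.21 and to 11.24 ± 0.30, and Gnb4 fell by 2.06 ± 0.16 in differentiation without a call between the siRNAs (-0.03 ± 0.16). Gng10 rose by 1.29 ± 0.10 with PPAR gamma siRNA. In the other direction, Gnb5 was higher by 2.16 ± 0.09 and Gng2 by 1.35 ± 0.11 in differentiation, and they differed by -1.02 ± 0.09 and -0.83 ± 0.11 between the siRNAs. When every probe set of a gene was averaged, 1 subunit was higher in differentiation and 1 lower with PPAR gamma siRNA.

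Among the enzymes that make and break cyclic AMP, differences were smaller than that of Pde3b. Of 10 adenylyl cyclases, 4 were higher and none lower in differentiation, led by Adcy9 (1.26 ± 0.11) and Adcy3 (0.73 ± 0.09). The others were Adcy8 (3.17 ± 0.07 to 3.41 ± 0.05) and Adcy10 (3.42 ± 0.15 to 3.67 ± 0.09), both near the level of the Trpn control probe sets. With PPAR gamma siRNA 3 were lower and none higher, with Adcy3 at -0.73 ± 0.09, Adcy6 at -0.58 ± 0.15 and Adcy2 at -0.46 ± 0.14. Those higher in differentiation were 40% of the list, beside 27.1% of all genes. Those lower with PPAR gamma siRNA were 30%, beside 16.1% of all genes. Called in either direction were 51.8% and 35.9% of all genes. The count of lower cyclases was 1 in differentiation when every probe set of a gene was averaged, with the Actb difference as a covariate, and without its 2 highest arrays. The count of higher cyclases was 2 when preadipocytes replicate 2 or 3 or control siRNA replicate 2 or 3 was left out, and 2 with the Actb difference as a covariate. Of 14 other phosphodiesterases, 3 were higher and 2 lower in differentiation, and the same numbers rose and fell between the siRNAs. In both comparisons 35.7% were called, below the 51.8% of all genes in differentiation and close to their 35.9% between the siRNAs. When every probe set of a gene was averaged, 1 was lower in differentiation. Pde4b rose by 1.45 ± 0.13 and then differed by -1.25 ± 0.13 between the siRNAs, and Pde1a went from 7.83 ± 0.18 to 9.03 ± 0.07 and to 8.44 ± 0.08. Pde4d did the reverse, at -0.58 ± 0.12 and 0.92 ± 0.12. Pde7a fell by 0.46 in differentiation, and with PPAR gamma siRNA Pde10a was higher by 0.37 ± 0.12. The count of higher phosphodiesterases with PPAR gamma siRNA was 1 with renewed quantile normalisation, in a fit of the 2 groups alone, and without preadipocytes replicate 1 or 2 or PPAR gamma siRNA replicate 1. Pde3a, the close relative of Pde3b, stood at 3.86 ± 0.07, 3.70 ± 0.15 and 3.90 ± 0.07 and was called in no comparison.

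Of 17 genes for protein kinase A, its inhibitors and its anchors, 7 were higher and 6 lower in differentiation (median 0.02), and between the siRNAs 4 rose and 5 fell (median 0.0022). The shares called were 76.5% and 52.9%, against 51.8% and 35.9% of all genes. Prkar2b, a regulatory subunit abundant in fat, read 9.30, 9.31 and 9.36 in preadipocytes, 11.25, 11.49 and 11.53 with control siRNA, and 9.74, 9.96 and 9.91 with PPAR gamma siRNA. The mitochondrial anchor Akap1 rose by 1.67 ± 0.10 and differed by -1.47 ± 0.10 between the siRNAs. The kinase inhibitor Pkia fell by 2.98 ± 0.13 in differentiation and stayed low, at 4.05 ± 0.13 after knockdown. Akap12 fell by 1.33 ± 0.15 in differentiation and rose by 0.76 ± 0.15 with PPAR gamma siRNA, when Akap11 rose by 1.01 ± 0.11. With the Actb difference as a covariate 4 genes of this list were higher in differentiation.

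Of 12 genes that end receptor signals, 2 were higher and 5 lower in differentiation, and between the siRNAs 2 rose and 2 fell. The shares called, 58.3% and 33.3%, were near the 51.8% and 35.9% of all genes. Rgs2, which speeds the switching off of G proteins, rose by 3.38 ± 0.09 and differed by -0.89 ± 0.09 between the siRNAs. The receptor kinase Grk5 went from 8.38 ± 0.11 to 6.72 ± 0.30 and to 8.36 ± 0.09. Arrestin Arrb1 rose by 1.09 ± 0.14 and Rgs16 fell by 1.5 ± 0.09 in differentiation, whereas Rgs3 rose by 0.97 ± 0.10 and Grk6 fell by 0.89 ± 0.11 with PPAR gamma siRNA. When every probe set of a gene was averaged, 4 of this list were lower with PPAR gamma siRNA.

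On the insulin route to PDE3B, 8 of 12 genes were higher and 3 lower in differentiation (median 0.59), and between the siRNAs 1 rose and 5 fell (median -0.14). In differentiation 91.7% were called and between the siRNAs 50%, against 51.8% and 35.9% of all genes. The receptor substrates Irs2 and Irs3 rose by 2.30 ± 0.17 and 1.72 ± 0.11 and differed by -1.85 ± 0.17 and -1.39 ± 0.11 between the siRNAs. Pik3r2, a regulatory subunit of phosphoinositide 3-kinase, moved by -1.41 ± 0.12 and 1.11 ± 0.12, and the kinase Akt1 fell by 1.27 ± 0.14 in differentiation. With the Actb difference as a covariate 5 genes of this list were higher in differentiation, and 2 with PPAR gamma siRNA.

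Of the lipase step downstream of the receptors, all 7 measured genes were higher in differentiation (median 5.60), as were 27.1% of all genes, and all 7 were lower with PPAR gamma siRNA (median -3.22), as were 16.1% of all genes. Hormone-sensitive lipase, Lipe, read 6.83, 6.75 and 6.82 in preadipocytes, 12.31, 12.52 and 12.38 with control siRNA, and 9.22, 9.28 and 9.05 with PPAR gamma siRNA. Adipose triglyceride lipase, Pnpla2, read 7.60, 7.60 and 7.41, then 12.65, 12.64 and 12.32, then 8.78, 8.99 and 8.89. The lipase inhibitor G0s2 (9.18 ± 0.12) and the fatty acid chaperone Fabp4 (8.86 ± 0.09) rose most in differentiation, and the monoglyceride lipase Mgll (-3.97 ± 0.09) and the glycerol channel Aqp7 (-3.79 ± 0.12) fell most with PPAR gamma siRNA.

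**Figure D5:**
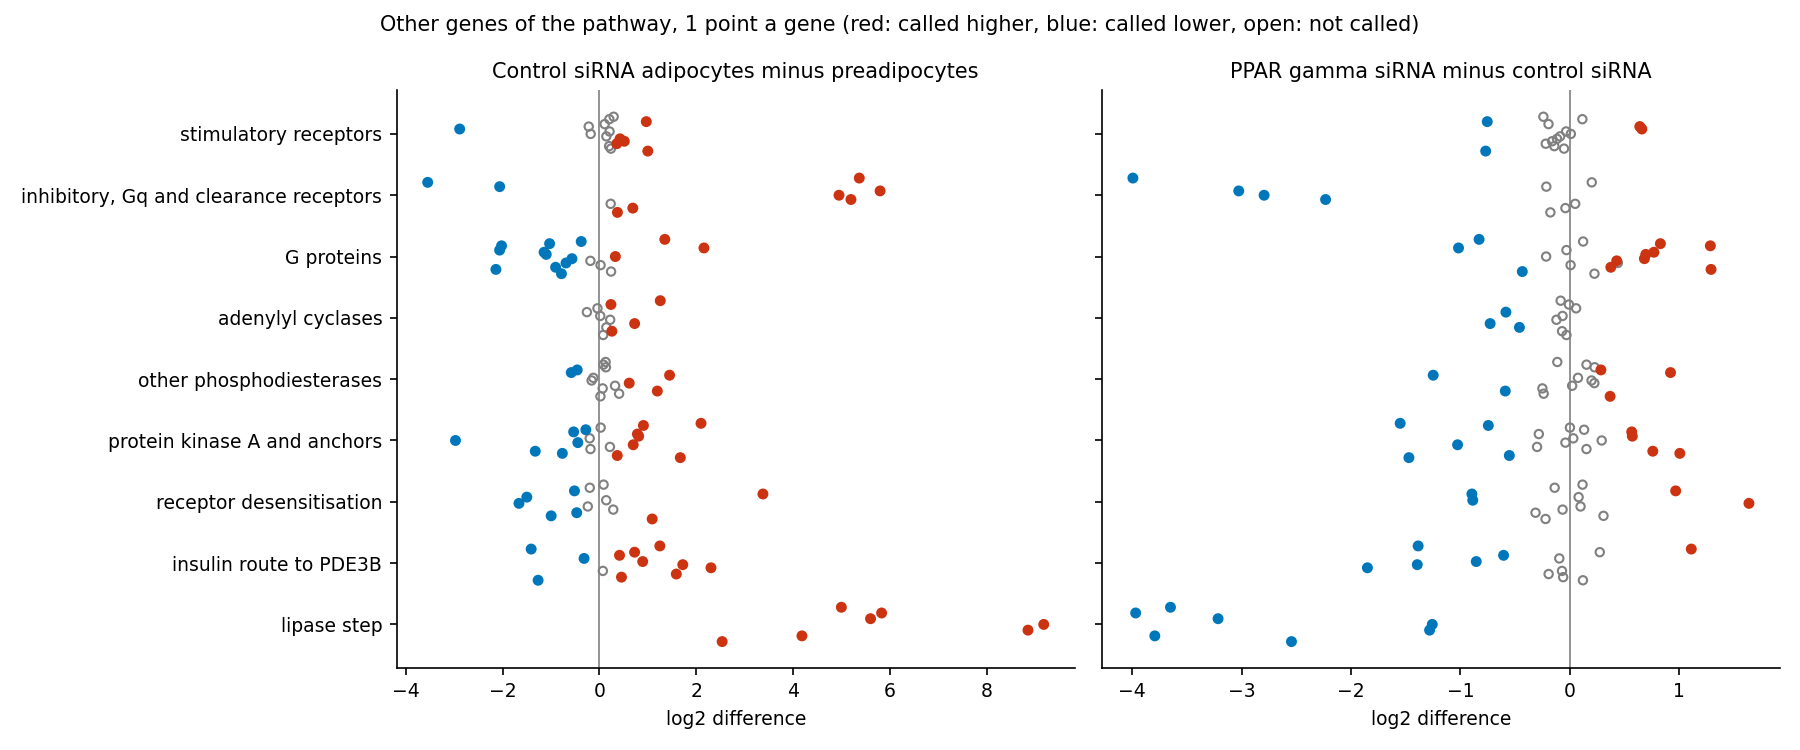
Log2 difference of each measured gene in the 9 pathway lists, control siRNA adipocytes minus preadipocytes on the left and PPAR gamma siRNA minus control siRNA on the right, coloured where called. All 7 genes of the lipase step lie right of 0 on the left and left of 0 on the right, and 4 metabolite receptors stand apart from the other receptors in both.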

How the data were processed

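The authors deposited 1 normalised log2 value per probe set and array; the scale was inferred from the values, 2.41 to 14.59. MAS5, RMA and affy 1.16.0 are named in the submitters' processing notes with no role or order. Which background correction was used is not stated there. Control probe sets (64) were left out, and the other 45037 were tested with limma 3.58.1 in R 4.3.3, in 1 fit of 9 arrays with 6 residual degrees of freedom, two-sided, after the same fit was tested on simulated data. Array medians lay between 4.82 and 4.89.

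The members, lists and alternatives were chosen with earlier results of these data known. Named genes were the members, the 2 called genes with the largest rise and fall of each list in differentiation and in knockdown, and the 3 closest profiles. Hcar1, Ffar4, Lipe, Pnpla2, Mc5r, Mrap2, Pde3a and Adcy2 were added after their values were seen. Same-numbered arrays were not paired. Promoter windows are from RefSeq (GRCm38.p6), and those at hand covered only Ffar2 and Ptger3 of the 5 genes. Planned within-array comparisons of Adrb3 with Adrb1 and with Pde3b were not run, as those receptors were not analysed here. Alternatives were renewed quantile normalisation, median centring, omission of dim probe sets (under 4.86 in all 3 groups), a fit of the 2 groups compared, robust variances with an intensity trend, averaging every probe set of a gene, omission of x and s probe sets, a replicate block, the Actb difference as a covariate, omission of its 2 highest arrays, and of each array in turn.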

Additional observations from a re-analysis of the deposited data

How the results depend on the processing

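For Mc2r, Mrap, Ffar2 and Pde3b all 228 values under the alternatives had the same direction and call as reported. Ptger3 was called under none. Its difference between the siRNAs changed sign to 0.013 with renewed quantile normalisation, 0.0102 with both probe sets averaged and 0.038 when the 2 arrays with the highest Actb difference were left out, and ranged from -0.12 to 0.10 with arrays left out in turn; it had no value with dim probe sets left out, which removed both of its probe sets. With both Mrap probe sets averaged, Mrap minus Mc2r changed by 0.041 in differentiation and -2.39 in knockdown, because the second Mrap probe set stayed low on all arrays. The same-number arrays correlated between -0.19 and 0.17 in their deviations from the group means, over 0.1 in 1 of 9 pairs. The labels give them only a shared number, and these correlations cannot show whether they share more. The replicate block changed no call on the 5 genes and gave -2.97 for Mrap in knockdown. The counts over all pathway genes stayed within 1.5 times the reported ones, whereas 46 of 1026 counts of single lists did not. Signal near background limits Ptger3, and the preadipocyte levels of Mc2r, Mrap and Ffar2.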

Other observations

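Receptor signals in fat cells end partly in genes of heat production. Of 5 brown adipocyte markers, 2 were higher in differentiation, Cidea (6.09 ± 0.14) and Prdm16 (0.49 ± 0.17, limma adjusted p = 0.0334), and 1, Cidea, was lower with PPAR gamma siRNA (-5.84 ± 0.14). The 40% higher in differentiation stands beside 27.1% of all genes, and the 20% lower with PPAR gamma siRNA is close to their 16.1%. In differentiation 51.8% of all genes were called in either direction. Ucp1, Zic1 and Dio2 lay between 2.70 and 4.31 on all 9 arrays and were called in no comparison. The protein kinase A inhibitor Pkig stood at 8.11 ± 0.10 in preadipocytes, 8.92 ± 0.22 with control siRNA and 9.49 ± 0.25 with PPAR gamma siRNA, the order that Mc2r also showed. Its differences were 0.81 ± 0.14 in differentiation and 0.57 ± 0.14 between the siRNAs (limma adjusted p = 0.0092 for the latter). Pkig was singled out after its values were seen.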
